A study of Saccharomyces cerevisiae with 48 samples.

Results

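The spread of transcript levels over time was compared between cdc28-4 and wild-type budding yeast, on 33 of the 48 arrays of the series. For each gene a straight line over time was fitted within each course and removed, and the SD of what remained was the measure of variation. The cdc28-4 strain (background BF264-15DU, mat a, cdc28-4) carries a temperature-sensitive CDC28, and the labels give its Cdk activity as none. It gave 2 courses with 10 arrays each between 50 and 230 min, 1 array every 20 min. The wild-type strain (BF264-15DU, mat a, bar1), labelled as having Cdk activity, gave 1 course with 13 arrays between 45 and 225 min, 1 array every 15 min. All cultures grew in rich medium (YEPD) at 25 °C before small daughter cells were separated by elutriation, and time was counted from the moment these cells met medium at 37 °C. Of 5449 genes measured, 5156 had a mean over the 33 arrays above the level set by the array's fission yeast probe sets (intensity 349, log2 8.45), and 293 did not. The gene next to that line on the inside was EDC1 (mean log2 8.4474) and the one on the outside was ABM1 (8.4473).

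In a dividing yeast culture that starts in one phase, many transcripts rise and fall in waves: G1 genes switched on by the factors SBF and MBF, S-phase genes such as those of histones and of the spindle, the CLB2 cluster of mitotic genes driven by Mcm1, Fkh2 and Ndd1, and the genes of mitotic exit and early G1. Cdc28, the yeast Cdk1, acts on several of these factors and on the events of the cycle. A transcript that follows a wave has a large SD about its line, whereas one that stays flat or drifts steadily has a small one. The study's title places Cdk activity within oscillations driven by a network of transcription factors. No period was fitted here, so the SD does not tell a wave from a single bend or an early transient.

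Array quality set limits on every comparison. The cdc28-4 course 2 array at 170 min lay far from its line, with a root mean square deviation over genes of 0.281 on the log2 scale, against 0.161 for the next array of that course and a median of 0.0897 over its 10 arrays. The comparison was therefore run with all arrays and again without that array, and the second run is called the repeat. The wild-type array at 45 min stood at 0.258, and the cdc28-4 arrays at 50 min at 0.179 and 0.161. Per the labels, RNA of samples 1 to 33 and of samples 34 to 48 was labelled with different kits, and in listing order these are the cdc28-4 and the wild-type samples, so kit and strain cannot be told apart. Fission yeast probe sets, which measure background, also had lower SDs in cdc28-4 (0.0917 and 0.103) than in wild type (0.121), a ratio of 0.788. The SD of the 3′ to 5′ log2 ratio of control genes, a sign of RNA quality, was 0.0458 and 0.0411 in the cdc28-4 courses and 0.0866 in wild type, and the ratio itself lay between 0.718 and 0.805 and between 0.519 and 0.653 in the cdc28-4 courses and between 1.14 and 1.44 in wild type. The part of these measures in the strain differences, of SDs and of levels, was not tested. The a-specific genes MFA1, MFA2, STE2, STE6 and AGA2 were far above the level in both strains, and BAR1 lay between 11.53 and 12.88 in cdc28-4 and between 7.38 and 7.69, under the level, in the bar1 wild type.

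**Figure D1:**
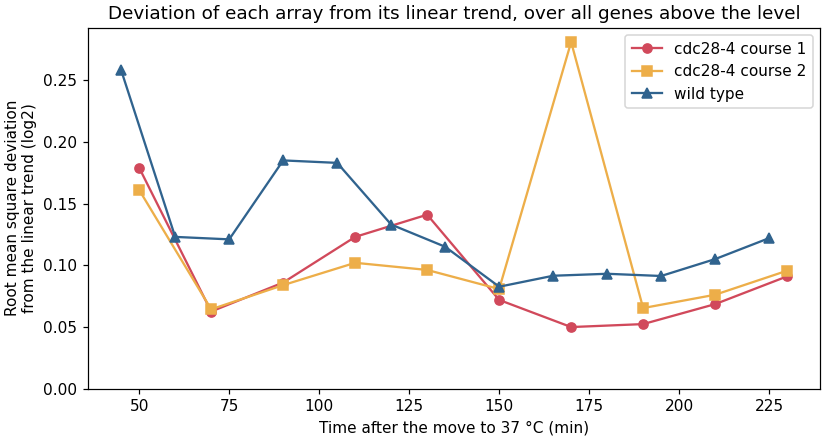
Root mean square deviation of each array from the linear trend of its course (log2 scale, over 5156 genes) against time at 37 °C (min), with cdc28-4 course 1 as circles, cdc28-4 course 2 as squares and wild type as triangles. The course 2 array at 170 min stands at 0.281, and the first array of each course lies above most others.

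Most transcripts had a smaller SD over time in cdc28-4 than in wild type. The median SD over genes was 0.0708 in cdc28-4 course 1 and 0.108 in course 2, against 0.119 in wild type, and the median ratio of cdc28-4 (geometric mean of both courses) over wild type was 0.741 (log2 -0.43). In the repeat the median SD of course 2 was 0.0619 and the median ratio was 0.570 (log2 -0.81). In a bulk sample, fewer cells taking part in a wave and a smaller wave per cell cannot be told apart. The wild-type SD lay above both cdc28-4 courses for 2768 genes (53.7%) and below both for 896 (17.4%). The SD ratio was 0.5 or less for 1196 genes (23.2%) and 2 or more for 183 (3.55%), and in the repeat for 2137 (41.4%) and 92 (1.78%). With SDs taken relative to those of the fission yeast probe sets the shift was smaller. The median log2 ratio was then -0.12, with 668 genes at 0.5 or less and 392 at 2 or more. In the repeat it was -0.49, with 1378 and 207 genes.

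Whether these differences exceeded the spread between courses was tested with limma on the log2 SD of each course, with Benjamini-Hochberg adjustment over 5156 genes and a threshold of 0.05. Wild type has 1 course, so its own spread between courses was not measured and was assumed to be that of the 2 cdc28-4 courses. For each gene limma blends its own spread between the cdc28-4 courses with that over all genes. A call therefore says only that the wild-type SD lay far from the mean of the cdc28-4 SDs by that blended spread. The cdc28-4 SDs of a called gene need not lie closer to each other than to the wild-type SD. With all arrays no gene passed, 0 lower and 0 higher in cdc28-4 (0%), with a smallest adjusted p of 0.573, while at an unadjusted p under 0.05 there were 371 lower and 31 higher. An F test of the variance ratio, which treats the arrays of a course as independent, called 1009 lower and 202 higher. In the repeat limma called 1627 genes lower in cdc28-4 (31.6%) and 61 higher (1.18%), and with each SD taken relative to that of the fission yeast probe sets it called 652 (12.6%) and 75 (1.45%). Of 119 genes named by a fixed rule, 59 passed in the repeat and 40 of these also relative to the fission yeast probe sets. The 19 that did not were CLB3, CLB4, CLB6, HCM1, RNR1, POL1, HTB1, HHO1, KIP1, STU2, MCM7, EGT2, CDC10, PHO5, ADH2, HXT3, TPS2, MFA2 and FUS1, with adjusted p of 0.0638 to 0.284. The rule takes in the genes with the lowest and highest SD ratios, so the counts of 59 and 40 are partly set by that choice. Both counts include HO, HOF1, IRC8, PCL9, YMR030W-A and MF(ALPHA)1, which lay mostly or wholly under the level in 1 strain. Their calls set a signal against background. With no line removed, 32 of the 119 ratios turned sign, 12 of them of genes that passed in the repeat. From 90 min onwards and without the array at 170 min limma called none, although the ratio was then 0.5 or less for 2674 genes.

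**Figure D2:**
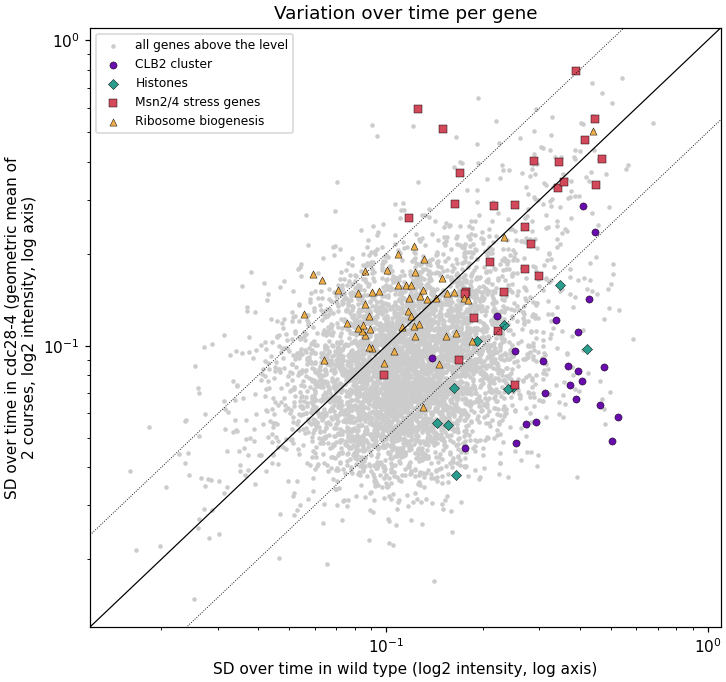
SD over time in cdc28-4 (geometric mean of 2 courses) against SD over time in wild type, both in log2 intensity on log axes, 1 point per gene (5156 genes). The solid line marks equal SDs and the dotted lines ratios of 2 and 0.5. Genes of the CLB2 cluster and histone genes lie below the solid line, and ribosome biogenesis and Msn2/4 stress genes lie on both sides of it.

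A second test asked which genes changed beyond a linear trend at all, with a limma F test in each strain whose spread came from the pairs of cdc28-4 arrays at 1 time, and single wild-type arrays were assumed to vary likewise. It called 421 genes (8.17%) in cdc28-4 and 1116 (21.6%) in wild type. Of these 217 were called in both, which is 51.5% of the cdc28-4 genes and 19.4% of the wild-type genes. In the repeat the counts were 833 (16.2%) and 2189 (42.5%), with 525 in both. With the course as a block, which takes out the mean difference between the cdc28-4 courses, they were 997 and 2072, and 2133 and 4103 in the repeat. Of the 1116 wild-type genes 679 (60.8%) had an SD ratio of 0.5 or less and 1 had a ratio of 2 or more. Of the 421 cdc28-4 genes 58 (13.8%) had a ratio of 2 or more and 20 (4.75%) one of 0.5 or less. Over all genes the shares were 23.2% at 0.5 or less and 3.55% at 2 or more. The time test and the SD ratio use the same deviations from the line. These counts are therefore partly set by the selection and give no separate support.

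Gene groups were described by counts beside the shares over all genes and by their median log2 SD ratio, cdc28-4 over wild type, beside the median of -0.43 over all genes. These shares were 23.2% for a ratio of 0.5 or less and 3.55% for 2 or more. A wild-type SD above both cdc28-4 courses was held by 53.7% and one below both by 17.4%. In the repeat limma called 31.6% lower and 1.18% higher, and 12.6% and 1.45% relative to the fission yeast probe sets. Time tests called 8.17% in cdc28-4 and 21.6% in wild type, and 16.2% and 42.5% in the repeat. Some genes stand in more than 1 group. Of the 43 genes whose median lay under the level in cdc28-4, 18 had a ratio of 0.5 or less, and of the 77 with a wild-type median under the level, 8 had a ratio of 2 or more. For such genes the SD in that strain is one of background signal.

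**Figure D3:**
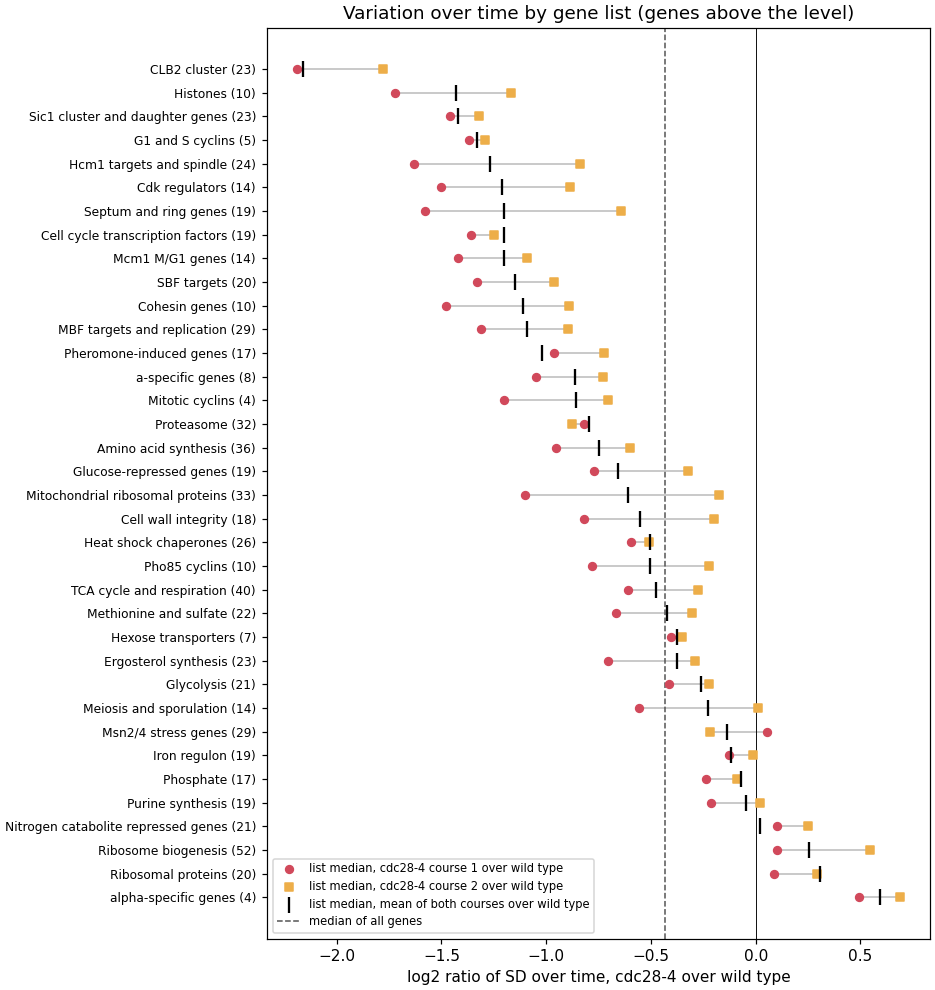
Median log2 ratio of SD over time, cdc28-4 over wild type, for 36 gene groups with the number of genes above the level in brackets. Circles and squares are the medians with cdc28-4 course 1 and course 2, black bars the medians with the mean of both, the dashed line the median of all genes (-0.43) and the solid line equal SDs. The CLB2 cluster lies furthest left, with a median of -2.16, and alpha-specific genes furthest right, with 0.59. Of these 4 alpha-specific genes 2 have a wild-type median under the level, and the 1 above the level on every array has -0.06.

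The CLB2 cluster, the genes that peak in mitosis, had the lowest median of all groups with all arrays and in the repeat. From 90 min without the array at 170 min its median was -1.94, against -2.22 for the Sic1 cluster and -2.03 for Mcm1 genes. Of its 23 members above the level, 19 had a ratio of 0.5 or less, 22 had a wild-type SD above both cdc28-4 courses, and the median log2 ratio was -2.16 (a ratio of 0.224). Its median SD was 0.0653 and 0.107 in the cdc28-4 courses and 0.374 in wild type. Averaged over the cluster, the deviation from the line stayed between -0.0712 and 0.0659 in cdc28-4 course 1 and reached 0.149 in course 2, at 170 min. In wild type it ran from -0.386 at 45 min through 0.569 at 105 min to -0.129 at 150 min and again to 0.109 at 180 min. In the repeat 20 of the 23 passed limma with a lower SD in cdc28-4 and none with a higher one, and 19 did so relative to the fission yeast probe sets. The cdc28-4 medians of IRC8 and HOF1 lay under the level, and over the 19 members above the level on every array the median with all arrays was -1.93.

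CHS2 (YBR038W), which encodes the chitin synthase that builds the primary septum, is described in full. Its level had a lowest, median and highest value of 9.37, 9.83 and 10.11 (log2) in cdc28-4 course 1, of 9.41, 9.78 and 9.92 in course 2, and of 9.59, 11.004 and 11.61 in wild type. The 2 cdc28-4 courses overlapped with each other throughout, and most wild-type arrays stood above all cdc28-4 arrays. Its SD was 0.0704 and 0.0484 in cdc28-4 and 0.528 in wild type, a log2 ratio of -3.18 (SE 0.54) and of -1.54 with no line removed, with an adjusted p of 0.0142 by limma in the repeat. Wild-type CHS2 deviated from its line by -0.66 at 45 min, 0.96 at 105 min, -0.28 at 150 min and 0.18 at 195 min.

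SWI5 (YDR146C), the gene of a transcription factor of mitotic exit, ran between 8.26 and 9.05 in cdc28-4 course 1 (median 8.69) and between 8.34 and 9.05 in course 2 (median 8.72), against 9.27 to 11.08 in wild type (median 10.75). No wild-type array overlapped with cdc28-4, where 3 arrays lay under the level, and the log2 SD ratio was -2.41 (SE 0.65) with the line removed and -1.42 without. CDC5 (YMR001C), the polo kinase gene, lay between 9.77 and 10.32 over both cdc28-4 courses and between 9.74 and 11.23 in wild type, with a log2 SD ratio of -2.11 (SE 0.56). BUD4, which encodes a landmark for axial budding, had SDs of 0.0325 and 0.137 in cdc28-4 and 0.390 in wild type. Without the array at 170 min the course 2 SD of BUD4 was 0.0538 and its log2 ratio -3.22. All 3 passed limma in the repeat, each with an adjusted p of 0.0142.

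CLB1 and CLB2, genes of the mitotic cyclins that bind Cdk1, had larger SDs in cdc28-4 than most of the cluster. CLB2 ran between 8.54 and 10.08 (median 9.94) in cdc28-4 course 1, between 8.77 and 10.28 (median 10.04) in course 2 and between 8.70 and 10.34 (median 10.02) in wild type. The ranges overlapped, with 1 wild-type array, that of 90 min, above all cdc28-4 arrays, and each course was lowest at its first array. Its SDs were 0.306 and 0.269 in cdc28-4 and 0.411 in wild type, a ratio that did not pass limma (adjusted p 0.304 in the repeat). CLB1, its close relative, had SDs of 0.218 and 0.255 against 0.445 and a log2 ratio of -0.92. Both cyclin genes changed beyond a linear trend in each strain, and their profiles after removal of the line correlated between the cdc28-4 courses at 0.96 for CLB1 and 0.94 for CLB2 (10 times each).

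CLB3 and CLB4 had smaller SDs. CLB3 stood at 0.0556 and 0.123 in cdc28-4 and 0.143 in wild type, and at 0.0384 in course 2 without the array at 170 min, which turned its log2 ratio of -0.80 into -1.63. CLB4 stood at 0.0555 and 0.0597 in cdc28-4 and 0.155 in wild type. Both passed limma in the repeat, with adjusted p of 0.0232 and 0.0258, but not relative to the fission yeast probe sets (adjusted p 0.0638 and 0.117).

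For G1 genes the line itself differed between strains: that of SBF targets had a median change over 180 min of 0.80 and 0.88 in the cdc28-4 courses and of -0.17 in wild type. Among SBF targets, the G1 genes of Swi4-Swi6, 11 of 20 had a ratio of 0.5 or less and all 20 had a wild-type SD above both cdc28-4 courses, with a median log2 ratio of -1.15. Among MBF targets and replication genes, 19 of 29 had a ratio of 0.5 or less and 26 a wild-type SD above both courses, with a median of -1.09. In the repeat 12 of 20 and 24 of 29 passed limma with a lower SD in cdc28-4, and 8 and 9 did so relative to the fission yeast probe sets. With no line removed, so that the linear change counted as variation, the median of the SBF targets was 0.28 and that of the 5 G1 and S cyclins 0.69, both above 0, while the MBF targets stayed under the median of all genes in each of 13 settings.

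CLN2 (YPL256C), the G1 cyclin gene and an SBF target, is an example. Its level had a lowest, median and highest value of 10.10, 11.45 and 12.20 in cdc28-4 course 1, of 10.05, 11.28 and 12.14 in course 2 and of 9.53, 10.28 and 11.29 in wild type. The cdc28-4 courses were lowest at 50 min and highest at 230 min, wild type was lowest at 45 min and highest at 75 min, and 3 wild-type arrays lay below all cdc28-4 arrays. The fitted line had a change of 2.04 and 2.12 over 180 min in cdc28-4 and of -0.22 in wild type. About those lines the SD was 0.132 and 0.179 in cdc28-4 and 0.491 in wild type, a log2 ratio of -1.68 (SE 0.52), and in the repeat the ratio passed limma (adjusted p 0.0144). With no line removed the log2 ratio was 0.59. Wild-type CLN2 deviated by 0.85 at 75 min, -0.41 at 120 min and 0.40 at 150 min.

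SDs of other G1 genes differed likewise about the line. PCL1, which encodes a G1 cyclin of the kinase Pho85, had SDs of 0.0732 and 0.130 in cdc28-4 and 0.416 in wild type, with linear changes over 180 min of 2.40 and 2.45 in cdc28-4 and 0.11 in wild type. SVS1, a cell wall gene, had SDs of 0.149 and 0.115 against 0.530, and TOS6 (YNL300W), a cell surface gene, of 0.09997 and 0.110 against 0.585. TOS6 ran between 11.16 and 13.25 over the cdc28-4 arrays and between 11.29 and 13.11 over the wild-type arrays, so the levels overlapped while the SDs did not. All 3 passed limma in the repeat, with adjusted p of 0.0142 for PCL1 and TOS6 and 0.0150 for SVS1. The log2 ratio of SVS1 was -2.01 with all arrays and -1.38 without the wild-type array at 45 min. With no line removed the log2 ratios were 1.04 for PCL1, 0.26 for TOS6 and -0.08 for SVS1. GIN4, a septin kinase gene, had a log2 ratio of -0.86 that was -1.76 without the array at 170 min and 0.42 with no line removed.

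The cyclin genes CLN1 and CLB6 depended on the first wild-type array and on the line. CLN1 had a log2 ratio of -1.33, and -0.73 without the wild-type array at 45 min, and CLB6, an S-phase cyclin gene, -1.42 and -0.47. Their ratios turned to 0.69 and 1.58 with no line removed. CLB5, the other S-phase cyclin gene, had SDs of 0.105 and 0.114 in cdc28-4 and 0.101 in wild type, a difference that did not pass in the repeat (adjusted p 0.885) and changed sign with the scaling of the arrays.

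**Figure D4:**
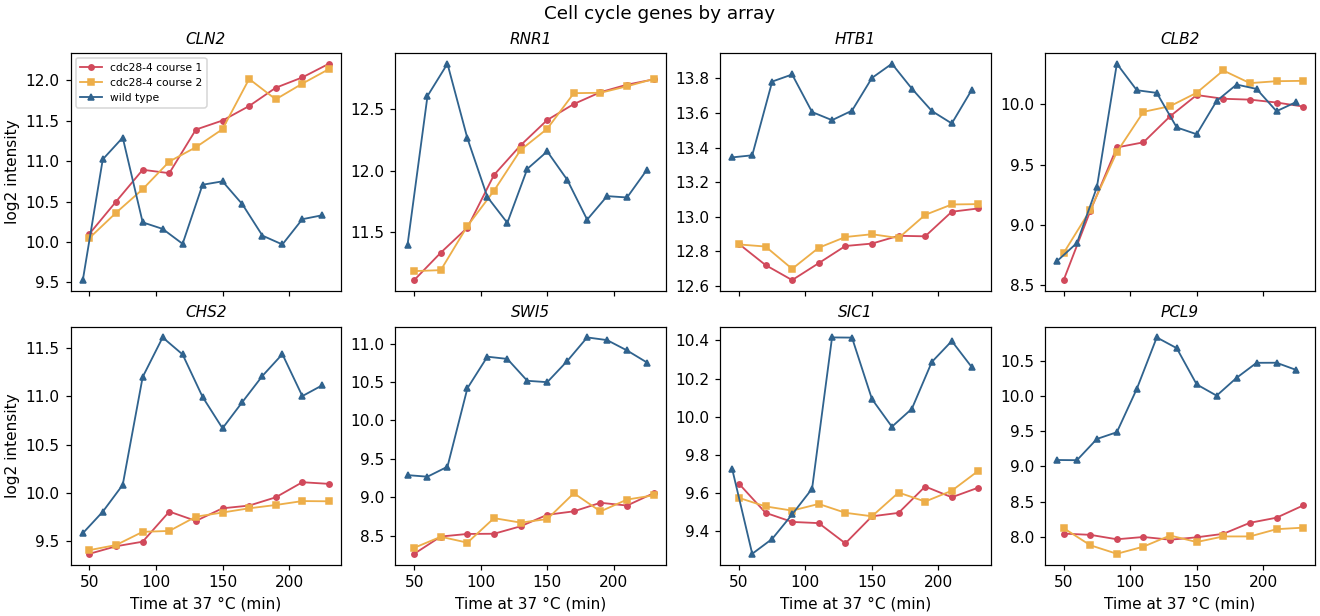
Log2 intensity of 8 cell cycle genes against time at 37 °C (min), 1 point per array, with cdc28-4 course 1 as circles, cdc28-4 course 2 as squares and wild type as triangles; the vertical axes differ between panels. CLN2 and RNR1 are highest at 230 min in cdc28-4 and at 75 min in wild type, CHS2, SWI5 and PCL9 stay low in cdc28-4, and CLB2 overlaps between strains.

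Replication genes of the MBF group had flatter lines, with a median change over 180 min of 0.27 and 0.25 in cdc28-4 and 0.05 in wild type. RNR1, the gene of the large subunit of ribonucleotide reductase, ran between 11.11 and 12.74 (median 12.31) in cdc28-4 course 1, between 11.18 and 12.74 (median 12.25) in course 2 and between 11.40 and 12.87 (median 11.93) in wild type. The ranges overlapped for all but 1 wild-type array, with the highest array at 230 min in cdc28-4 and at 75 min in wild type. Its SDs were 0.166 and 0.168 in cdc28-4 and 0.411 in wild type, a log2 ratio of -1.30 that turned to 0.56 with no line removed, and its linear change over 180 min was 1.73 and 1.77 in cdc28-4 and -0.39 in wild type. It was the 1 MBF gene of the 29 that changed beyond a linear trend in cdc28-4 with all arrays, against 19 in wild type. In the repeat 4 of the 29 did so in cdc28-4 and 27 in wild type. CDC21, the thymidylate synthase gene, had SDs of 0.0565 and 0.0343 against 0.296, a log2 ratio of -2.75 (SE 0.58), and of -0.19 with no line removed.

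POL1, the gene of the catalytic subunit of DNA polymerase alpha, had a log2 ratio of -0.99 (-0.19 with no line removed), and that of CDC9, the DNA ligase gene, was -1.43 (-2.01 in the repeat). All 4 of RNR1, CDC21, POL1 and CDC9 passed limma in the repeat, but RNR1 and POL1 not relative to the fission yeast probe sets (adjusted p 0.141 and 0.228). Of 10 cohesin genes, whose products hold sister chromatids together, 5 had a ratio of 0.5 or less and 6 passed in the repeat, all lower, against 5 relative to the fission yeast probe sets. MCD1, the gene of the kleisin subunit, had SDs of 0.0599 and 0.0872 in cdc28-4 and 0.386 in wild type, and IRR1, which encodes another subunit, 0.0643 and 0.120 against 0.221. The log2 ratio of IRR1, -1.33 with all arrays, was -2.25 without the course 2 array at 170 min and 0.16 with no line removed, where that of MCD1 was -0.34.

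Histone genes, expressed in S phase, had smaller SDs in cdc28-4 in all 10 members above the level, and 8 had a ratio of 0.5 or less. Their median SD was 0.0795 and 0.0914 in cdc28-4 and 0.212 in wild type, with a median log2 ratio of -1.43, and 8 of 10 passed limma in the repeat, against 5 relative to the fission yeast probe sets. HTB1 (YDR224C), a histone H2B gene, had a lowest, median and highest level of 12.63, 12.84 and 13.05 in cdc28-4 course 1, of 12.70, 12.88 and 13.07 in course 2 and of 13.34, 13.61 and 13.88 in wild type. No array of wild type overlapped with cdc28-4, and wild type was high at 90 and again at 165 min, where it deviated from its line by 0.23 and 0.20. Its log2 SD ratio was -1.17 (SE 0.50). Probe sets of the paired histone genes can share sequence, so each value may hold the signal of both copies.

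HHT1, a histone H3 gene, had SDs of 0.0454 and 0.119 in cdc28-4 and 0.248 in wild type, and 0.0212 in course 2 without the array at 170 min, so that its log2 ratio was -1.76 with all arrays and -3.002 in the repeat. HTA1, a histone H2A gene, had SDs of 0.126 and 0.109 against 0.233, and its ratio did not pass in the repeat (adjusted p 0.0696). HHO1, the linker histone gene, had a log2 ratio of -1.14 that was -0.45 without the wild-type array at 45 min. The mean deviation of the histone genes in wild type was -0.426 at 45 min, 0.337 at 90 min and 0.181 at 165 min. In cdc28-4 it was highest at 50 min, 0.0919 and 0.0953, where the wild-type course was lowest at its first array.

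Spindle and kinetochore genes, several of them targets of the S-phase factor Hcm1, gave 17 of 24 with a ratio of 0.5 or less, a median of -1.27 and 20 of 24 passing limma in the repeat, all lower in cdc28-4, against 12 relative to the fission yeast probe sets. None of the 24 changed beyond a linear trend in cdc28-4, with all arrays or in the repeat, against 16 and 18 in wild type. Over all genes the shares were 8.17% and 16.2% in cdc28-4 and 21.6% and 42.5% in wild type. CIN8, a kinesin-5 gene, had SDs of 0.0713 and 0.180 in cdc28-4 and 0.265 in wild type, and its course 2 SD was 0.0643 without the array at 170 min. KIP1, the other kinesin-5 gene, had a log2 ratio of -1.06 that was -0.33 without the wild-type array at 90 min. STU2, the gene of a microtubule polymerase, had one of -0.54 that was 0.22 without that array and 0.29 with no line removed.

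Genes of the septum and contractile ring gave 10 of 19 with a ratio of 0.5 or less and a median of -1.20, and 15 of 19 passed in the repeat, all lower in cdc28-4, against 9 relative to the fission yeast probe sets. HOF1 (YMR032W), which encodes an F-BAR protein of the ring, had SDs of 0.0542 and 0.0755 in cdc28-4 and 0.464 in wild type, but all its cdc28-4 arrays lay under the level, the highest at 8.42. Septins form the collar at the bud neck. CDC10, a septin gene, had SDs of 0.0391 and 0.131 in cdc28-4 and 0.124 in wild type, and SHS1, another, of 0.0409 and 0.164 against 0.0840. The course 2 values were 0.0475 and 0.0706 without the array at 170 min, and the log2 ratio of CDC10, -0.79 with all arrays, was 0.16 without the wild-type array at 45 min. That of SHS1 was -0.04 and changed sign with the scaling of the arrays.

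At the boundary of mitosis and G1, Mcm1 genes that prepare the next round of replication gave 9 of 14 with a ratio of 0.5 or less and a median of -1.20, and 8 of 14 passed in the repeat, against 4 relative to the fission yeast probe sets. MCM2 (YBL023C), a subunit gene of the replicative helicase, ran between 10.54 and 10.77 over both cdc28-4 courses and between 10.62 and 11.21 in wild type. Its SDs were 0.0377 and 0.0249 in cdc28-4 and 0.172 in wild type, a log2 ratio of -2.48 (SE 0.55). MCM7, of the same helicase, had a log2 ratio of -1.30, and both passed in the repeat, MCM7 not relative to the fission yeast probe sets (adjusted p 0.0715). CDC6, the origin licensing gene, had SDs of 0.0897 and 0.0912 against 0.148 and did not pass (adjusted p 0.157).

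The Sic1 cluster and daughter genes, which Swi5 and related factors switch on as cells leave mitosis, differed among themselves. Of 23 genes, 15 had a ratio of 0.5 or less and 21 changed beyond a linear trend in wild type, while 9 did so in cdc28-4. SIC1 (YLR079W), the gene of the Cdk inhibitor, had a lowest, median and highest level of 9.33, 9.49 and 9.65 in cdc28-4 course 1, of 9.48, 9.55 and 9.72 in course 2 and of 9.28, 10.04 and 10.42 in wild type. Wild-type SIC1 was highest at 120 min and high again at 210 min, and 9 of its 13 arrays stood above every cdc28-4 array. Its SDs were 0.103 and 0.0599 in cdc28-4 and 0.284 in wild type, a log2 ratio of -1.85 (SE 0.59) that passed in the repeat (adjusted p 0.0209). PCL9, another Pho85 cyclin gene, lay under the level on all cdc28-4 arrays, with a highest value of 8.44, and ran between 9.09 and 10.84 in wild type.

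Genes of cell separation in the daughter had large SDs in cdc28-4. CTS1, the chitinase gene, had SDs of 0.427 and 0.401 in cdc28-4 and 0.350 in wild type, DSE2, a glucanase gene of the daughter cell, 0.374 and 0.339 against 0.417, and DSE1 0.330 and 0.351 against 0.311, with a log2 ratio of 0.13 whose sign changed with the scaling of the arrays. Both cdc28-4 medians of DSE1, the higher at 8.16, lay under the level. All 3 changed beyond a linear trend in cdc28-4 and none of their ratios passed in the repeat. Averaged over the cluster, the deviation in cdc28-4 was highest at 50 min, 0.271 in both courses, and in wild type at 135 min, with 0.568. EGT2, a separation gene, had SDs of 0.122 and 0.171 in cdc28-4 against 0.387 in wild type and passed in the repeat (adjusted p 0.0261), but not relative to the fission yeast probe sets (adjusted p 0.1). From 90 min and without the array at 170 min the cluster's median was -2.22, against -1.03 for all genes.

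Regulators of the cycle gave the same order of counts. Of 14 genes for CDC28 and its direct and indirect regulators, 8 had a ratio of 0.5 or less (median -1.21). None of the 14 changed beyond a linear trend in cdc28-4, where the share of all genes was 8.17%, and 8 did in wild type, where it was 21.6%. In the repeat 1 changed in cdc28-4 and 10 in wild type. SWE1, the gene of the kinase that inhibits Cdc28, had SDs of 0.0934 and 0.0908 in cdc28-4 and 0.275 in wild type, and 0.0354 in course 2 without the array at 170 min, which makes its log2 ratio -2.26 in place of -1.58. Of 19 genes for cell cycle transcription factors, 12 had a ratio of 0.5 or less, none changed beyond a linear trend in cdc28-4 and 11 did in wild type (median -1.20). In the repeat 2 of the 19 changed in cdc28-4 and 15 in wild type. Over all genes the shares in the repeat were 16.2% and 42.5%. For groups this small the cdc28-4 counts lie near the shares of all genes. SWI4, the gene of the DNA-binding subunit of SBF, had SDs of 0.123 and 0.219 against 0.222 and did not pass in the repeat (adjusted p 0.0712), and HCM1 had a log2 ratio of -1.20 and passed (adjusted p 0.0370), but not relative to the fission yeast probe sets (adjusted p 0.0754). The ratios of SWI4 and HCM1 turned to 1.00 and 0.06 with no line removed.

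Outside the cell cycle, several groups lay near or above the median of all genes. Msn2/4 stress genes, the general stress response, had large SDs in both strains, with medians of 0.316 and 0.250 in cdc28-4 and 0.251 in wild type, and a median log2 ratio of -0.14. Of the 29, 5 had a ratio of 2 or more and 2 of 0.5 or less, and 18 changed beyond a linear trend in cdc28-4 against 14 in wild type. Over all genes the shares were, in that order, 3.55%, 23.2%, 8.17% and 21.6%. Their mean deviation was highest at the first array of each course, 0.536 and 0.399 at 50 min in cdc28-4 and 0.493 at 45 min in wild type. In cdc28-4 it then reached -0.474 at 130 min in course 1 and -0.268 at 110 min in course 2, and in wild type -0.372 at 90 min. CTT1, the cytosolic catalase gene, had SDs of 0.316 and 0.260 against 0.217, and TPS2, a trehalose synthesis gene, 0.0992 and 0.125 against 0.223.

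Heat shock chaperone genes had a median of -0.51, which turned to 0.31 with no line removed, and 17 of 26 changed beyond a linear trend in wild type against 6 in cdc28-4. In the repeat these counts were 24 and 13. Over all genes the shares were 21.6% in wild type and 8.17% in cdc28-4, and 42.5% and 16.2% in the repeat. HSP26, a small heat shock protein gene with the highest SD in wild type, stood at 0.633 and 0.451 in cdc28-4 and 0.675 in wild type. All 3 of its courses were highest at their first array, 14.10 in both cdc28-4 courses and 13.61 in wild type. For HSP104, the disaggregase gene, the log2 ratio of -0.97 was -0.37 without the wild-type array at 45 min, and for SSA4, an inducible Hsp70 gene, -0.37 and 0.30. Of 32 proteasome genes 31 had a wild-type SD above both cdc28-4 courses, against 53.7% of all genes (median -0.80). Beyond a linear trend 25 of the 32 changed in wild type and 2 in cdc28-4, the latter near the share of all genes. In the repeat 29 proteasome genes changed in wild type and 14 in cdc28-4. Their mean deviation in wild type was 0.366 at 45 min and -0.205 at 90 min, and for PRE1, a core subunit gene, the log2 ratio of -1.03 was -0.14 without the array at 45 min.

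Ribosome biogenesis genes, which serve the assembly of new ribosomes, lay on the other side. Of 52 genes, 29 had a wild-type SD below both cdc28-4 courses and 8 one above both, and the median log2 ratio was 0.25. Over all genes the shares were 17.4% below both and 53.7% above both. In the repeat only 3 of the 52 passed limma with a higher SD in cdc28-4 and none with a lower one. Relative to the fission yeast probe sets 3 passed, all higher. Their mean deviation in cdc28-4 was -0.188 and -0.226 at 50 min, with 0.190 at 130 min in course 1, and in wild type it stayed between -0.0919 and 0.110. The median stayed above that of all genes in each of 13 settings, and was -0.63 from 90 min without the array at 170 min, where that of all genes was -1.03. NSR1, a nucleolar protein gene, had SDs of 0.207 and 0.251 in cdc28-4 and 0.232 in wild type, a log2 ratio of -0.03 that was 0.70 without the wild-type array at 45 min and whose sign changed with the scaling. NOP7, a gene of large subunit assembly, had SDs of 0.154 and 0.257 against 0.109, and none of its tests passed.

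Ribosomal protein genes were among the least variable, with median SDs of 0.0444 and 0.0615 in cdc28-4 and 0.0449 in wild type and a median log2 ratio of 0.30. RPL3 was steadier in cdc28-4, with 0.0267 and 0.0139 against 0.0656, and it passed in the repeat (adjusted p 0.0270), though its log2 ratio of -1.77 was -0.79 without the wild-type array at 45 min. Genes of mitochondrial ribosomes had a median of -0.61 with 11 of 33 at a ratio of 0.5 or less. The group's median was -1.10 with course 1, -0.18 with course 2, and -1.29 in the repeat.

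Metabolic groups were mixed, and several lay near the shares of all genes, 23.2% at a ratio of 0.5 or less and 3.55% at 2 or more. Of 36 amino acid synthesis genes, many of them driven by Gcn4, 15 had a ratio of 0.5 or less and 3 of 2 or more (median -0.75). Of 22 methionine and sulfate genes 3 had a ratio of 0.5 or less and 2 of 2 or more (median -0.43), of 40 TCA cycle and respiration genes 11 and 3 (median -0.48), and of 21 glycolysis genes 2 and 2 (median -0.26). Glucose-repressed genes gave 3 of 19 and none (median -0.66), and ergosterol synthesis genes 9 of 23 and 1 (median -0.37). Purine synthesis genes gave 4 of 19 and 1, and 10 changed beyond a linear trend in each strain (median -0.05). Phosphate genes gave 3 of 17 and none (median -0.07), nitrogen catabolite repressed genes none of 21 and 2 (median 0.02), and iron regulon genes none of 19 and 4 (median -0.12). The medians of the phosphate and nitrogen groups changed sign with the scaling of the arrays. With no line removed the medians turned to 0.18 for glucose-repressed genes, 0.09 for TCA cycle genes, 0.16 for purine genes and 0.06 for phosphate genes.

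MET3 (YJR010W), the ATP sulfurylase gene, was 10.99 and 11.49 at 50 min in the cdc28-4 courses and at most 10.18 in wild type, where its highest array was that of 75 min. Its SDs were 0.327 and 0.450 in cdc28-4 and 0.162 in wild type, a log2 ratio of 1.24 that passed in the repeat (adjusted p 0.0429) and was -0.04 without the course 1 array at 50 min. PHO5, the repressible acid phosphatase gene, went the other way, with 0.219 and 0.158 against 0.510 and an adjusted p of 0.0296 in the repeat (0.123 relative to the fission yeast probe sets). HXT2, a glucose transporter gene, had SDs of 0.524 and 0.488 against 0.290 and did not pass (adjusted p 0.104), and HXT3, a transporter of low affinity, 0.0274 and 0.0357 against 0.0740 and passed (adjusted p 0.0341), but not relative to the fission yeast probe sets (adjusted p 0.169). FIT2, an iron uptake gene of the cell wall, had SDs of 0.636 and 0.562 against 0.292 without passing (adjusted p 0.0589).

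The genes of the mating types are read against the genotypes, since both strains are mat a and only wild type is bar1. Of 8 a-specific genes 4 had a ratio of 0.5 or less (median -0.87), and of 17 pheromone-induced genes 9 had one of 0.5 or less and 2 one of 2 or more (median -1.02). STE2 (YFL026W), the alpha-factor receptor gene, ran between 13.01 and 13.50 over both cdc28-4 courses and between 12.38 and 12.99 in wild type, without overlap. Its SDs were 0.0401 and 0.0531 in cdc28-4 and 0.176 in wild type, and it passed in the repeat (adjusted p 0.0142). MFA2, an a-factor gene, had a log2 ratio of -1.48 and FUS1, a cell fusion gene, one of -1.30, and both passed too, but not relative to the fission yeast probe sets (adjusted p 0.074 and 0.161). The ratio of FUS1 turned to 0.30 with no line removed, and that of STE2 was -0.46.

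MF(ALPHA)1 (YPL187W), the alpha-factor gene that mat a cells normally keep silent, lay between 7.71 and 11.004 (median 10.50) in cdc28-4 course 1, between 7.60 and 11.07 (median 10.31) in course 2 and between 7.11 and 7.57 (median 7.29), under the level, in wild type. No array overlapped between strains, and in both cdc28-4 courses the lowest array was at 50 min and the highest at 190 min. Its SDs were 0.554 and 0.492 in cdc28-4 and 0.121 in wild type, where it is that of background signal. The log2 ratio of 2.11 thus sets a signal against background, and no test of it is given. SAG1, the alpha-agglutinin gene, had SDs of 0.140 and 0.136 against 0.143, and its log2 ratio of -0.06 changed sign with the scaling and was 0.59 without the wild-type array at 105 min.

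HIS4 (YCL030C), an enzyme gene of histidine synthesis, had the highest ratio of all genes. Its lowest, median and highest levels were 10.76, 10.90 and 13.10 in cdc28-4 course 1, 10.63, 10.80 and 13.13 in course 2, and 10.46, 10.70 and 11.27 in wild type. The cdc28-4 arrays at 50 and 70 min stood above all wild-type arrays, and the later ones overlapped with wild type. The SDs were 0.520 and 0.534 in cdc28-4 and 0.0906 in wild type, a log2 ratio of 2.54 (SE 0.48, adjusted p 0.0142 by limma in the repeat). From 90 min without the array at 170 min the log2 ratio was 0.97. The genes named for the highest and lowest ratios were chosen after their values were seen, since none passed with all arrays.

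GND2, which encodes a 6-phosphogluconate dehydrogenase, was also highest at 50 min in cdc28-4, with SDs of 0.659 and 0.543 against 0.126 and highest arrays of 11.72 and 11.58 at 50 min in cdc28-4, against at most 9.40 in wild type. All its wild-type arrays lay below all its cdc28-4 arrays. Its log2 ratio was 2.25 with all arrays, 1.58 without the course 1 array at 50 min and 0.37 from 90 min in the repeat. TDH1 (YJL052W), a glyceraldehyde-3-phosphate dehydrogenase gene, followed another shape. It had a lowest, median and highest level of 12.95, 13.31 and 13.75 in course 1, of 13.20, 13.48 and 13.94 in course 2 and of 12.90, 12.997 and 13.10 in wild type. Both cdc28-4 courses were highest at 50 min and lowest at 130 min and all wild-type arrays lay below every course 2 array and overlapped with the lower part of course 1.

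The SDs of TDH1 were 0.273 and 0.262 in cdc28-4 and 0.0563 in wild type, a log2 ratio of 2.25 (SE 0.48) that was 2.29 in the repeat and 2.29 from 90 min in the repeat. PDR12, the gene of an efflux pump for weak acids, had SDs of 0.468 and 0.254 against 0.0702 and was lowest at 50 min in both cdc28-4 courses. YGR201C had SDs of 0.423 and 0.562 in cdc28-4, the second of which was 0.330 without the array at 170 min, against 0.0939 in wild type. All of TDH1, GND2, PDR12 and YGR201C passed in the repeat, with adjusted p between 0.0142 and 0.0157. MNP1, a mitochondrial ribosomal protein gene, and RPS17A, a ribosomal protein gene with a near-identical copy, depended on 1 array. Their log2 ratios of 2.20 and 2.14 were 0.29 and 1.07 without the course 2 array at 170 min, and neither passed then (adjusted p 0.719 and 0.0559).

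**Figure D5:**
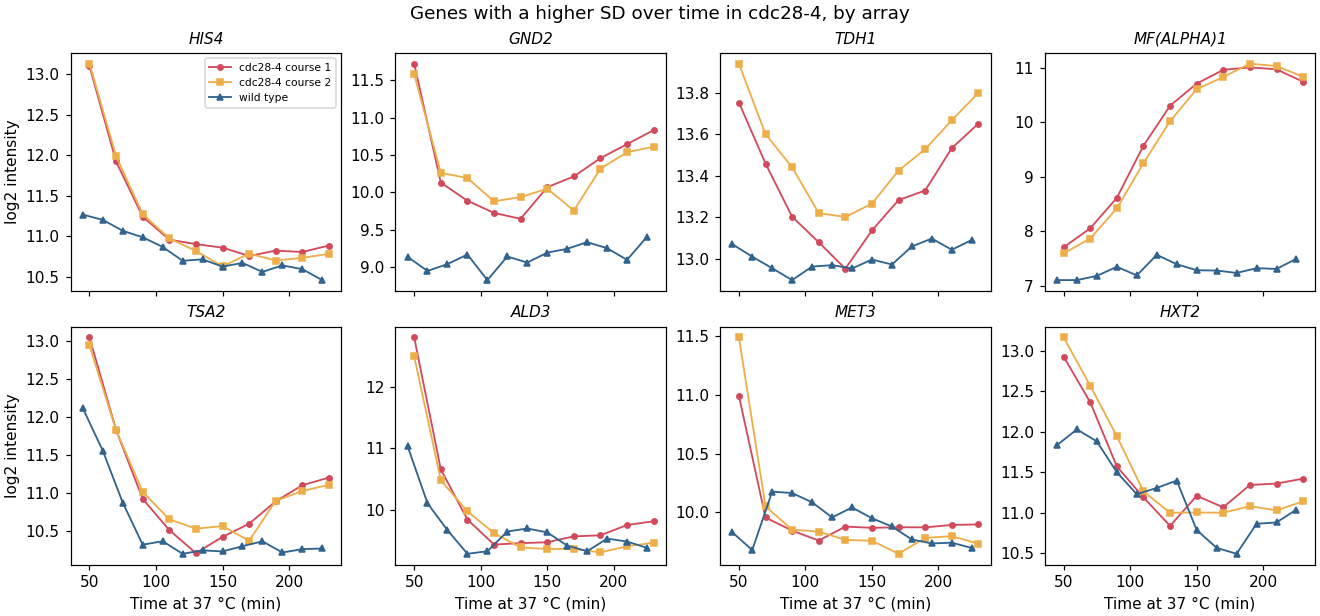
Log2 intensity of 8 genes with a higher SD over time in cdc28-4, against time at 37 °C (min), 1 point per array, with cdc28-4 course 1 as circles, cdc28-4 course 2 as squares and wild type as triangles; the vertical axes differ between panels. HIS4, GND2, TSA2, ALD3, MET3 and HXT2 are highest at 50 min in both cdc28-4 courses, TDH1 is lowest at 130 min in both, and MF(ALPHA)1 is highest at 190 min in both while wild type stays at or under 7.57.

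At the other end stood BUD9, IRC8, CHS2, YMR030W-A, RSC9, HO, PRY1 and HOF1. BUD9 (YGR041W), which encodes a landmark of bud-site selection, ran between 9.11 and 9.68 in cdc28-4 course 1, between 8.96 and 9.42 in course 2 and between 8.48 and 10.27 in wild type. Wild type reached both below and above the cdc28-4 arrays. Its SDs were 0.0267 and 0.0519 in cdc28-4 and 0.393 in wild type, a log2 ratio of -3.40 (SE 0.64), and of -1.25 with no line removed. HO (YDL227C), the endonuclease gene of mating type switching, had SDs of 0.0549 and 0.0707 against 0.475, and linear changes over 180 min of 0.61 and 0.51 in cdc28-4 and 2.19 in wild type. HO lay under the level on 15 of the 20 cdc28-4 arrays. IRC8, a gene of the CLB2 cluster, had a log2 ratio of -3.37, but all its cdc28-4 arrays lay under the level, the highest at 8.39, as did those of YMR030W-A, the highest at 8.42. The log2 ratio of YMR030W-A was -3.11 with all arrays and -3.89 without the course 1 array at 230 min.

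RSC9, a subunit gene of the RSC chromatin remodeller, had SDs of 0.0141 and 0.0204 in cdc28-4 and 0.141 in wild type at levels between 10.70 and 11.38. Its log2 ratio was -3.05, and -0.28 with no line removed. PRY1, a secreted protein gene, had 0.0302 and 0.0536 against 0.295. PRY1 stayed between 12.87 and 13.18 over the cdc28-4 arrays and ran between 10.32 and 12.38 in wild type, where it was highest at 45 min and had a linear change of -1.58 over 180 min. BUD9, RSC9 and PRY1 passed limma in the repeat, with an adjusted p of 0.0142. No test is given for HO, IRC8, YMR030W-A and HOF1, whose cdc28-4 SDs are mostly or wholly those of background signal.

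The genes with the highest F in cdc28-4 were led by early transients. TSA2 (YDR453C), a thioredoxin peroxidase gene, had a lowest, median and highest level of 10.21, 10.91 and 13.05 in course 1, of 10.37, 10.96 and 12.94 in course 2 and of 10.20, 10.30 and 12.12 in wild type. It was highest at the first array of all 3 courses, and 12 of the 13 wild-type arrays lay within the range of course 1. Its adjusted p was 2.43e-07 in cdc28-4 and 0.000241 in wild type, and its SDs were 0.779 and 0.674 against 0.438. The others were HIS4, SNZ1, a vitamin B6 synthesis gene, YNL208W and ALD3, an aldehyde dehydrogenase gene, and each was highest at 50 min in both courses. SNZ1 had linear changes over 180 min of -2.01 and -2.22 in cdc28-4 and -3.12 in wild type, with SDs of 0.557 and 0.507 against 0.410.

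The genes with the highest F in wild type were IRC8, HO, TOS6, YJL118W and PHO3, the constitutive acid phosphatase gene. TOS6 and YJL118W did not pass in cdc28-4, with adjusted p of 0.194 and 0.320, whereas PHO3 did (adjusted p 1.11e-05). No cdc28-4 test is given for IRC8 and HO, which lay under the level on 20 and 15 of the 20 cdc28-4 arrays. PHO3 was lowest at the first array of every course, 11.87 and 12.01 in cdc28-4 and 10.54 in wild type, with SDs of 0.412 and 0.348 against 0.557. The highest SDs in cdc28-4 were those of ALD3, INA1, TSA2, SSA3, an Hsp70 gene, and HPF1, a cell wall mannoprotein gene. Those of ALD3 were 0.876 and 0.724 against 0.391, and its log2 ratio of 1.03 was 1.91 without the wild-type array at 45 min. The log2 ratio of SSA3 was 0.51 with all arrays and 1.63 without that array, and that of INA1 0.48 and 1.103.

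The cdc28-4 courses were also compared with each other, as a description across genes that share arrays. After removal of the line, the correlation of a gene's 10 values in course 1 with those in course 2 had a median of 0.425 over all genes, and of 0.641 without the 170 min arrays. From 90 min without the 170 min arrays it was 0.296. On that last measure the medians were 0.728 for phosphate genes, 0.693 for Msn2/4 stress genes, 0.670 for purine genes, 0.643 for chaperone genes and 0.626 for nitrogen catabolite repressed genes. They were 0.585 for SBF targets, 0.503 for the Sic1 cluster, 0.455 for MBF targets and 0.408 for the CLB2 cluster. Of the 23 members of the CLB2 cluster 17 lay above 0, near the share of 68.8% over all genes. Histone genes had 0.255, and cell cycle transcription factors -0.05, with 9 of 19 above 0.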

How the data were processed

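RNA of the 33 samples was hybridised to Affymetrix yeast arrays. The values used are the probe set intensities the authors deposited, on a linear scale, made with affy per the submitters' processing notes; the sources used here give neither its version nor the way values were summarised and normalized. The log2 was taken with no constant added. Where a gene had several probe sets (47 genes), that of highest mean stood for it. A gene was kept where its mean over the 33 arrays exceeded the mean 95th percentile of 1746 S. pombe probe sets, so a gene high in 1 strain passes.

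Each SD is that of the residuals about a straight line within 1 course. Tests used R 4.3.3 and limma 3.58.1: lmFit and eBayes on log2 SD per course, and an F test of polynomial terms beyond the first in each strain, with Benjamini-Hochberg adjustment over 5156 genes. The scripts were tested on simulated data. The p-values measure only the spread between these courses, and their precision is limited by how few arrays there are.

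The 2 cdc28-4 courses are numbered as replicates per the labels. Over 45 pairs of times, same-course deviations correlated at 0.033 to 0.872 (median 0.592), over 0.1 in 40 pairs, and the number marks the course in the series' design.

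Named genes are the 8 lowest and 8 highest SD ratios, the 5 highest SDs in each strain, the 5 highest F in each time test, and examples of each gene list. Of the examples, FIG1 and DAL80 were not above the level, and 1 gene was not used here. The members and lists were chosen with earlier results of these data known. Promoter sequences were not used here.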

Additional observations from a re-analysis of the deposited data

Results flagged for a closer look

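The cdc28-4 course 2 array at 170 min had a root mean square deviation from the linear trends of 0.281 over 5156 genes, far above the other arrays of its course, the next of which stood at 0.161. Its gap to the next array was 0.554 of the range of the course, above Dixon's critical value for 10 arrays, and chance alone marks about 1 in 20 such groups. The strain comparison and the time tests are given with and without that array.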

How the results depend on the processing

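The counts moved with single arrays and with other settings. Leaving out each of the 33 arrays in turn gave 0 to 1627 genes with a lower and 0 to 61 with a higher SD in cdc28-4 by limma, 786 to 2137 genes with a ratio of 0.5 or less, 92 to 344 with 2 or more, and a median log2 ratio of -0.81 to -0.19. The time tests called 163 to 2462 genes in cdc28-4 and 408 to 2189 in wild type. The cdc28-4 count of 163 is without course 2 at 50 min and that of 2462 without course 1 at 170 min, which leaves the outlying array alone at its time. Without the wild-type array at 45 min there were 786 and 344 genes past the ratios and 408 wild-type time calls. Without both cdc28-4 arrays at 170 min limma called 1098 lower and 35 higher, the ratios were passed by 2066 and 109 genes, and the time tests called 967 and 2189. A ratio of 2 or more was held by 109 genes with a quadratic trend removed and 318 with none. Centring on S. pombe probe sets gave 757 genes at 0.5 or less. The median absolute deviation gave 113 lower, 11 higher and 1867 at 0.5 or less, and the F test of variances 1009 and 202. Without course 2 at 170 min the time tests called 833 and 2189. Without course 1 the median log2 ratio was -0.17, 459 genes had a ratio of 2 or more, and without course 2, 119 had one and 1831 had 0.5 or less. The replicate block gave 997 and 2072 time calls, and 2133 and 4103 without course 2 at 170 min. Chosen after seeing the data were the single-array runs of the time tests, the block without that array, the window from 90 min without that array (2674 genes at 0.5 or less, 29 at 2 or more, median -1.03), the F test without it (2134 lower, 99 higher) and SDs relative to S. pombe probe sets (668 and 392 genes past the ratios, and 652 lower and 75 higher by limma without it). The causes were not tested. The median kept its sign in 21 of 36 gene groups over 12 alternatives, and the ratio in 62 of 119 named genes.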
